A study of Mus musculus with 23 samples.

Results

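Tryptophan catabolism was followed here through 7 genes, Ido1, Ido2, Kmo, Kynu, Wars, Il4i1 and Ahr, in MC38 tumors of 6 host lines. The members were taken by symbol, and all 7 of 7 were found among the 26869 genes of the expression table. The tumors were 23 implants of MC38, a mouse colon carcinoma line, and transcript levels were measured by bulk poly(A) RNA sequencing. The study asked how gene expression differed between tumors of hosts that respond to an antibody against PD-1 (aPD1) and tumors of hosts that do not.

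All hosts were female F1 mice aged 8 to 12 weeks, from crosses of C57BL/6J with a Collaborative Cross strain, a recombinant inbred mouse of mixed founder ancestry. The responder (R) lines were CC001F1, CC002F1 and CC075F1, whose Collaborative Cross parents were CC001/UncJ, CC002/UncJ and CC075/UncJ. The non-responder (NR) lines were CC036F1, CC079F1 and CC080F1, with the parents CC036/UncJ, CC079/TauUncJ and CC080/TauUncJ. Cells were implanted under the skin, and at a tumor size of 75 to 110 mm3 each mouse received a single 200 µg dose of aPD1 (29F.1A12) or of an isotype control (2A3). Tumors were taken 48 h later, so the data hold 1 early time point. Every line had 2 isotype and 2 aPD1 tumors, except CC080F1, which had 2 isotype tumors and 1 aPD1 tumor. This gave 12 R tumors (6 isotype, 6 aPD1) and 11 NR tumors (6 isotype, 5 aPD1). Every tumor came from the same implanted cell line. Hosts of a line are genetically alike, so each class rests on 3 lines.

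Tryptophan is broken down mainly along the kynurenine pathway. Ido1 and Ido2 encode indoleamine 2,3-dioxygenases, which open the indole ring in the first and rate-limiting step. Kmo, kynurenine 3-monooxygenase, and Kynu, kynureninase, act further down toward NAD. Il4i1 encodes a secreted amino acid oxidase that deaminates phenylalanine and tryptophan. Wars encodes tryptophanyl-tRNA synthetase, which loads tryptophan for protein synthesis, and both Ido1 and Wars are well-known targets of interferon gamma. Ahr encodes the aryl hydrocarbon receptor, a transcription factor that kynurenine and other tryptophan metabolites bind. In tumors, loss of tryptophan and a rise in kynurenine are known to restrain T cells.

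The genes lie on 5 chromosomes (GRCm38, GENCODE vM21). Ido1 (ENSMUSG00000031551, chr8:24584136-24597009, minus strand) and Ido2 (ENSMUSG00000031549, chr8:24531892-24576333, minus strand) are neighbours, with a gap of 7802 bases. Kmo (ENSMUSG00000039783) is at chr1:175620381-175662116 and Kynu (ENSMUSG00000026866) at chr2:43555329-43682715, both on the plus strand. Wars (ENSMUSG00000021266, chr12:108860030-108894174) and Ahr (ENSMUSG00000019256, chr12:35497974-35535038) are on the minus strand of chromosome 12. Il4i1 (ENSMUSG00000074141) is at chr7:44816387-44840809 on the plus strand. All 7 are annotated as protein coding, and counts cover the exons. No 100-base stretch of an Ido1 transcript occurs in Ido2 or in any other gene. Ahr shares 0.455% of its 100-base windows with Gm48236, a noncoding gene absent from the expression table. Il4i1 is the main exception among the members. Of its exonic bases, 83.9% overlap exons of Tbc1d17 on the other strand, and 69.2% of its 100-base windows also occur in Tbc1d17 transcripts in one orientation or the other. Whether strand was used in the counting is not given in the sources used here, so Il4i1 values are uncertain.

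Library totals ran from 14494014 to 71868253 expected counts. They formed 17 deep libraries of at least 37242363 counts (10 R and 7 NR tumors) and 6 shallow ones of at most 18354585 counts (2 R and 4 NR). Shisal2b, the marker listed for MC38 cells, was read in every tumor. Summed B cell markers stood at 680 to 1458 normalized counts in 3 tumors (CC002F1 isotype replicate 1, CC079F1 aPD1 replicate 1 and CC080F1 aPD1 replicate 1) and at no more than 210.4 in the other 20. Summed skeletal muscle markers (Ckm, Acta1, Mybpc2 and Atp2a1) were at 4310 or more in 4 tumors (CC001F1 isotype replicate 1, CC001F1 aPD1 replicate 1, CC075F1 aPD1 replicate 1 and CC080F1 isotype replicate 2) and at 888 or less in the rest. Levels are given below as normalized counts, that is counts divided by a size factor per library, and changes as log2 values from DESeq2 with standard errors. A gene was called where its adjusted p (Benjamini-Hochberg over all genes) was below 0.05.

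The 7 genes were transcribed at very unequal levels. Compared per length, in CPM (counts scaled to a common library total) per kb of exon, Wars had a median of 18.6 (range 14.1 to 25.6) over the 23 tumors and stood above Ahr in all 23. Ahr (median 1.61, range 1.16 to 2.35) and Ido1 (median 1.54, range 0 to 5.55) followed, and these neighbours did not differ in order, since Ahr was the higher of the pair in 10 of 23 tumors. Kmo came next (median 0.579), below Ido1 in 19 tumors, then Ido2 (0.391), Il4i1 (0.242) and Kynu (0.0955). Kmo exceeded Ido2 in 16 tumors, Ido2 exceeded Il4i1 in 16 and Il4i1 exceeded Kynu in 21. By mean CPM per kb, Wars stood at percentile 90.6 of the 26630 genes with a count, Ido1 at 61.7 and Kynu at 34.2.

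**Figure D1:**
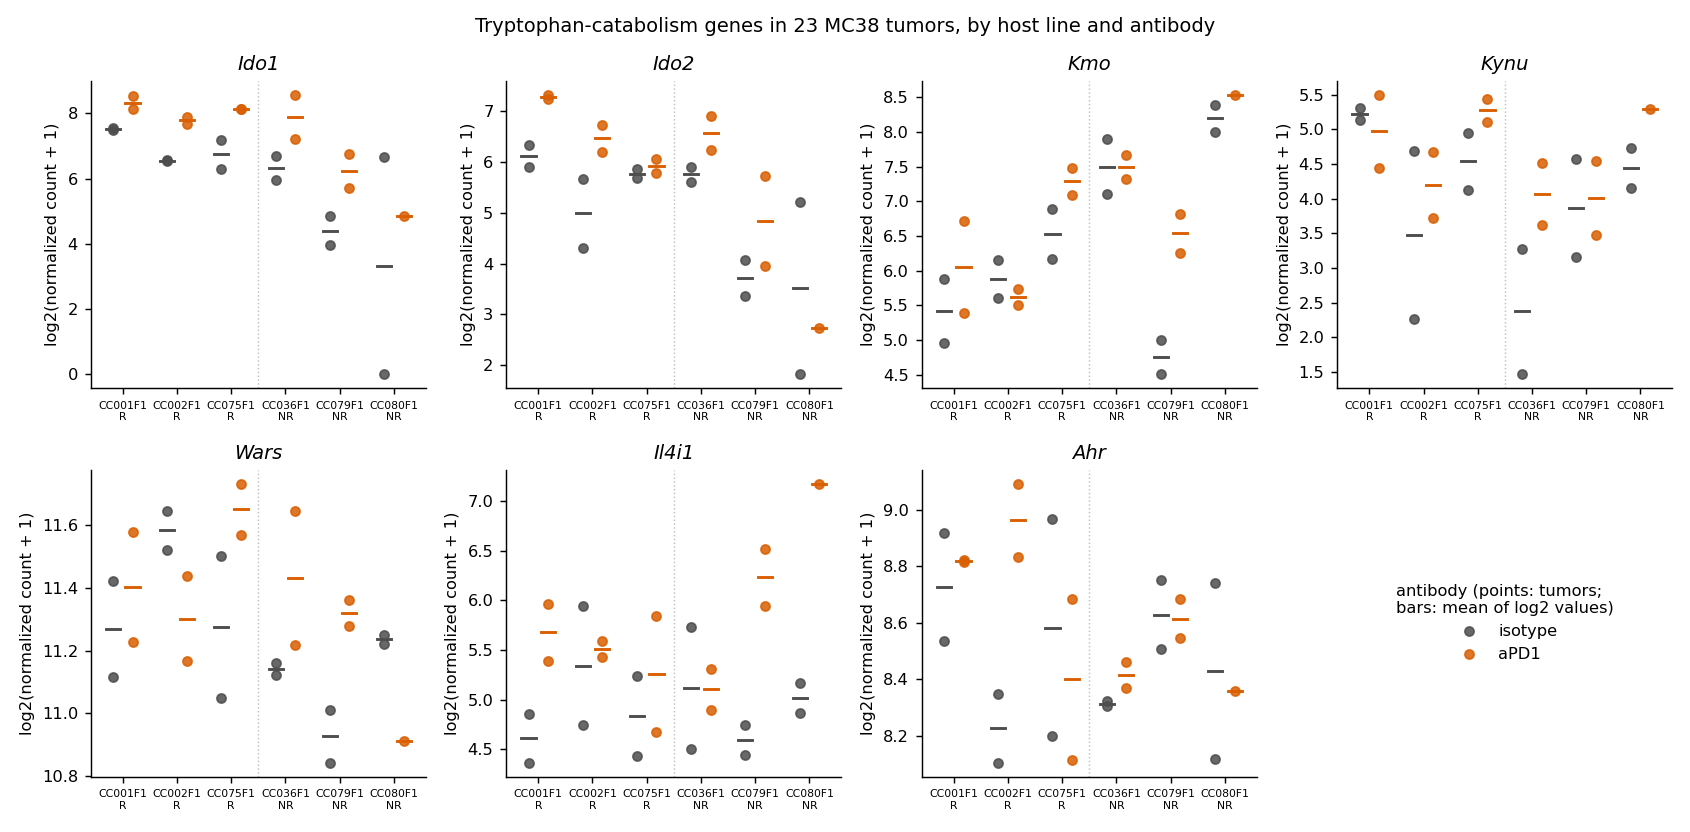
Level of each gene in every tumor, as log2(normalized count + 1) on the vertical axis, against host line on the horizontal axis, with R lines left and NR lines right of the dotted line. Gray points are isotype tumors, orange points are aPD1 tumors and bars are means of the log2 values. In 5 of 6 lines both aPD1 tumors lie above both isotype tumors for Ido1, and CC080F1 has the highest Kmo points, from 256 to 369.9 normalized counts.

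The first question was what aPD1 did to these genes in 48 h. In the R lines, Ido1, the inducible first enzyme, rose. In CC001F1 its normalized count was 179.7 and 187 with isotype and 279 and 372 with aPD1. In CC002F1 it was 91.1 and 93.3 with isotype and 237 and 204 with aPD1. In CC075F1 it was 145 and 77.5 with isotype and 279 and 279.8 with aPD1. The 6 isotype tumors (77.5 to 187) and the 6 aPD1 tumors (204 to 372) of the R lines thus did not overlap. Ido1 was the only one of the 7 genes with every aPD1 tumor above every isotype tumor, which held for 0.611% of the 15701 genes tested, and none of the 7 had every aPD1 tumor below, which held for 0.248%. The means were 129 ± 48.0 (SD, n = 6) with isotype and 275 ± 56.6 (SD, n = 6) with aPD1. With line as a term, Ido1 rose 2.18-fold (log2 1.12 ± 0.17, DESeq2 adjusted p 1.93e-07).

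Ido2, the neighbouring gene with a similar but weaker enzyme, rose as well in the R lines. Its normalized counts were 58.8 and 79.4 against 150.0 and 158 in CC001F1, and 18.8 and 49.5 against 105 and 72.2 in CC002F1, isotype before aPD1. In CC075F1 the isotype tumors held 49.95 and 56.8 and the aPD1 tumors 65.2 and 53.9, so that the groups overlapped in that line. The fitted change over the R lines was log2 0.91 ± 0.27 (1.88-fold, DESeq2 adjusted p 0.0218). In the R lines 2 of the 7 members were called, both higher, against 5.26% of all genes called and 4.85% called higher.

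Both calls depended on the test. In edgeR's quasi-likelihood test, which called 0 of 24858 genes in the R lines (0.0%) although 2621 had an unadjusted p below 0.05, the Ido1 change was log2 1.12 with an adjusted p of 0.0585, and the Ido2 change was 0.90 with an adjusted p of 0.166. The Ido1 call held without each of the 12 R tumors in turn (log2 1.00 to 1.21). The Ido2 call was lost without CC001F1 isotype replicate 1 (adjusted p 0.0987), CC001F1 aPD1 replicate 2 (0.11), CC002F1 aPD1 replicate 1 (0.117) or CC075F1 isotype replicate 1 (0.0506), all by DESeq2.

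The other 5 genes did not pass in the R lines. Their log2 changes were 0.36 ± 0.30 for Kmo, 0.30 ± 0.42 for Kynu, 0.06 ± 0.12 for Wars, 0.52 ± 0.34 for Il4i1 and 0.20 ± 0.19 for Ahr, with DESeq2 adjusted p of 0.499 to 0.869. Wars, although an interferon target like Ido1, held 2117 to 3202 normalized counts with isotype and 2296 to 3398 with aPD1, and the groups overlapped.

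The interferon gamma axis rose in the same comparison. Of its 13 listed genes (ligand, receptors, signaling and targets), 9 rose in the R lines and none fell in DESeq2 (9 with an unadjusted p below 0.05 and none called in edgeR), with a median log2 change of 0.63 against -0.01 over all genes. Ifng, the cytokine itself, rose by 1.5 ± 0.37 (DESeq2 adjusted p 0.00365) and Cd274, which encodes PD-L1, by 1.02 ± 0.24 (0.00306). Ciita, Cxcl9, Cxcl10, Gbp2, Irf1 and Socs1 were also among those called. Of the 4 markers of type 1 conventional dendritic cells, a cell type known to express Ido1, Xcr1 (1.41 ± 0.39) and Irf8 (0.69 ± 0.16) rose. Batf3 (0.54 ± 0.31, DESeq2 adjusted p 0.402) and Clec9a (-0.02 ± 0.10, 0.969) did not pass. The summed level of these 4 markers was 2140 to 2788 in R isotype tumors and 2460 to 5124 in R aPD1 tumors. None of the 4 markers of mature dendritic cells (Ccr7, Fscn1, Ccl22 and Il12b) passed in DESeq2 or edgeR (1 with an unadjusted p below 0.05 in each). Of the 5 macrophage markers, Adgre1 was called higher (0.45 ± 0.13, DESeq2 adjusted p 0.0207) and 3 had an unadjusted p below 0.05. Their summed level was 51070 and 48740 with isotype and 80850 and 86590 with aPD1 in CC002F1. The groups overlapped in the other R lines. In CC001F1 the sums were 91080 and 103300 with isotype and 84480 and 103000 with aPD1. In CC075F1 they were 90320 and 94010 with isotype and 137200 and 88490 with aPD1. In R tumors as a whole the median was 90700 (48740 to 103300) with isotype and 87540 (80850 to 137200) with aPD1. None of the 4 T and NK cell markers (Cd3e, Cd8a, Nkg7 and Ncr1) passed in DESeq2 or edgeR (3 and 2 with an unadjusted p below 0.05), with a summed level of 514 to 1307 with isotype and 659 to 2716 with aPD1. The part of these cells in the Ido1 change was not tested, and in bulk tumors more cells of a type and more RNA per cell cannot be told apart.

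In the NR lines no member passed in DESeq2 or edgeR, and 2 of 7 had an unadjusted p below 0.05 in each. DESeq2 called 0.0448% and edgeR 0.0204% of 24552 genes there. Ido1 was nevertheless higher with aPD1 in 2 of the 3 lines. In CC036F1 it was 60.9 and 102.5 with isotype and 379 and 148 with aPD1, and in CC079F1 it was 14.5 and 27.8 against 51.7 and 108. CC080F1 differed from both. Its isotype tumors held 100.2 and 0 normalized counts and its single aPD1 tumor 28.1. The count of 0 came from a shallow library that was also high in muscle markers, where 3 counts, the limit that a count of 0 allows, would be 7.68 normalized counts. Over the NR lines the isotype range was 0 to 102.5 and the aPD1 range 28.1 to 379, and the fitted change was log2 1.28 ± 0.88 (DESeq2 adjusted p 1). Without CC080F1 isotype replicate 1 it was 2.01 with an adjusted p of 0.00174. Of the 13 interferon gamma axis genes, 0 were called in the NR lines in DESeq2 or edgeR (1 and 4 with an unadjusted p below 0.05). Their median log2 change there was 0.24, against 0.01 over all genes, and Ifng was at -0.07 ± 0.47. The difference of this change between R and NR lines was called for 0 of the 13 in either tool.

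The fitted Ido1 changes in the R and NR lines, 1.12 and 1.28, were thus alike in size, with a wider error in the NR lines. The difference between them was tested as an interaction of class and antibody, and none of the 7 genes passed in DESeq2 or edgeR (0 of 7 with an unadjusted p below 0.05 in each). DESeq2 called 0.0342% and edgeR 0.0% of 26342 genes. For Ido1 the R change minus the NR change was log2 -0.13, with a 95% interval of -1.64 to 1.38. For Ido2 it was 0.39 (-0.84 to 1.62), for Kmo -0.28 (-1.13 to 0.57) and for Il4i1 -0.63 (-1.71 to 0.46). The intervals for Wars (-0.466 to 0.235) and Ahr (-0.27 to 0.68) were the narrowest. These intervals allow differences of more than 2-fold in either direction for Ido1.

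When the 6 lines were fitted together, each with its own level, Ido1 alone among the members was called, at log2 1.19 ± 0.37 (DESeq2 adjusted p 0.0479, edgeR 0.118), where DESeq2 called 2.79% of 16638 genes and edgeR 0.0569% of 26342. This call sat at the threshold. It was also lost in deep libraries (0.96, adjusted p 0.0697), with depth as a term (1.18, 0.0718) and with the replicate block (1.18, 0.0577), all by DESeq2. It was lost when any 1 of 18 of the 23 tumors was left out (log2 1.04 to 1.44 over all 23), the exceptions being CC001F1 aPD1 replicate 1, CC036F1 aPD1 replicate 2 and the 3 CC080F1 tumors. Ido2 was called there without CC080F1 isotype replicate 1 (0.96, DESeq2 adjusted p 0.00394) or aPD1 replicate 1 (0.96, 0.0146). Without the 3 tumors high in B cell markers, a choice made after seeing the data, Ido1 (1.44, adjusted p 0.0186) and Ido2 (0.92, adjusted p 0.0131) were both called.

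**Figure D2:**
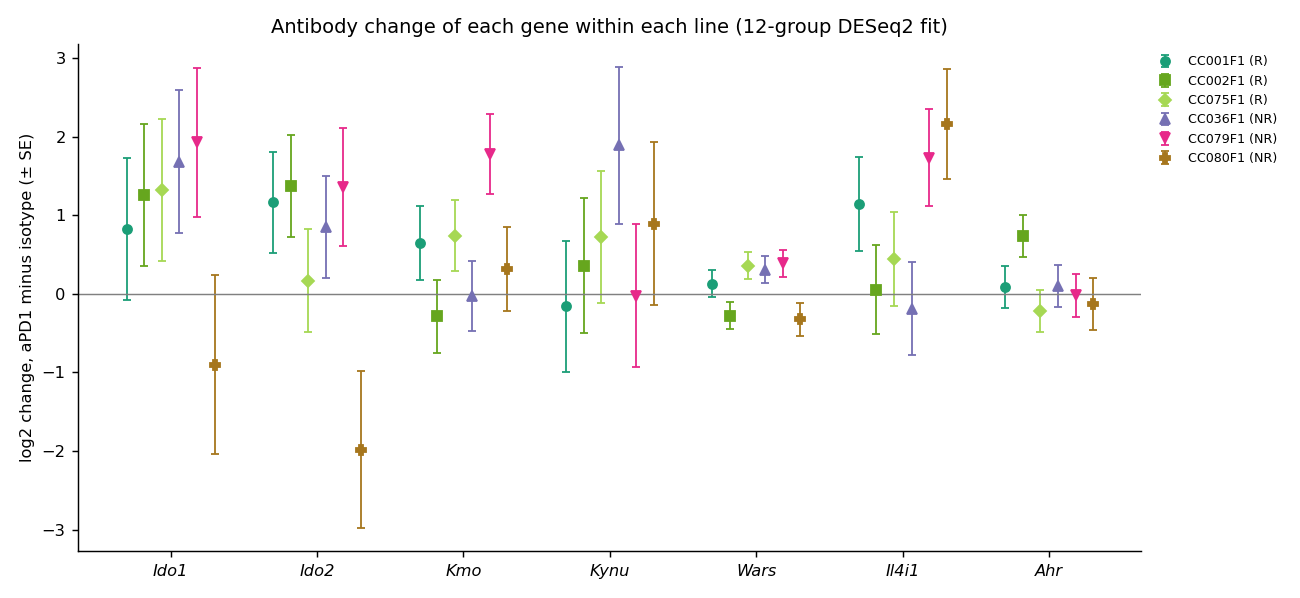
Change with antibody within each host line, as log2 aPD1 minus isotype with its standard error, for the 7 genes on the horizontal axis, from a single DESeq2 fit of the 12 groups. Ido1 is above 0 in 5 lines, from 0.83 to 1.93, and at -0.90 in CC080F1, and Wars lies between -0.32 and 0.39 in all 6 lines.

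Within single lines, where 1 or 2 tumors faced 2, none of the 40 member and line pairs with an adjusted p was called in DESeq2, although 9 had an unadjusted p below 0.05, and edgeR called 0 of 42 with 10 below 0.05. DESeq2 called 0.0721% of all genes in CC001F1, 3.37% in CC002F1, 2.68% in CC075F1, 0.0627% in CC036F1 and 0.276% in CC079F1, but 0.019% in CC080F1. The edgeR shares were 0.391% in CC002F1, 0.213% in CC075F1 and 0.0% in the other 4 lines. The Ido1 change was log2 0.83 in CC001F1, 1.25 in CC002F1, 1.33 in CC075F1, 1.68 in CC036F1 and 1.93 in CC079F1 but -0.90 in CC080F1, with errors of 0.90 to 1.14. The direction in CC080F1 rested on single tumors, since without its isotype replicate 1 the 28.1 of the aPD1 tumor stood against 0 alone. In this fit the single CC080F1 aPD1 tumor was taken to vary like the other groups. The lowest adjusted p was that of Kmo in CC079F1 (log2 1.78 ± 0.51, DESeq2 adjusted p 0.0791), where 31.0 and 21.8 normalized counts with isotype stood against 75.4 and 112 with aPD1.

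The Il4i1 values moved furthest in 2 NR lines, without passing the test. It was 20.7 and 25.8 with isotype and 90.7 and 60.5 with aPD1 in CC079F1, and 34.9 and 28.2 against 143 in CC080F1. In CC036F1 it was 21.7 and 52.1 against 28.7 and 38.7, with overlapping groups. The log2 changes were 1.74 ± 0.61, 2.16 ± 0.70 and -0.19 ± 0.59, and none passed (DESeq2 adjusted p 0.191, 1 and 1). The 90.7 and the 143 were read in tumors with B cell marker sums of 680 and 1458, and CC002F1 isotype replicate 1, the other tumor high in those markers, held 60.4, the highest Il4i1 of the R isotype tumors. Over the NR lines the change was 1.16 ± 0.43 with unadjusted p 0.00639 (DESeq2 adjusted p 0.621), and it was called without CC036F1 isotype replicate 2 (1.63, adjusted p 0.00985). Over all lines it was 0.83 ± 0.28 (DESeq2 adjusted p 0.0774), and was called without that tumor (0.0163) or CC002F1 isotype replicate 1 (0.0276). Tbc1d17, the antisense neighbour, held 579 to 877 normalized counts over all tumors, with a Pearson r of 0.12 to Il4i1 (log2 scale, 23 tumors). Without the 3 tumors high in B cell markers the Il4i1 change was 0.45 in the NR lines (DESeq2 adjusted p 0.904) and 0.78 in the R lines (0.216). The part of Tbc1d17 reads in the Il4i1 values was not tested.

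Wars and Ahr had small differences, in no common direction. Both aPD1 tumors were above both isotype tumors for Wars in CC075F1, CC036F1 and CC079F1, while every aPD1 tumor was below both in CC002F1 and CC080F1. The log2 changes ran from -0.32 to 0.39. Over the NR lines the Wars change was 0.19 ± 0.11, and it was called without CC080F1 aPD1 replicate 1 (0.35, DESeq2 adjusted p 0.0321). In CC075F1 it was called only without isotype replicate 1 of that line (0.60, DESeq2 adjusted p 0.0484). In CC002F1, 12 of 19 other aminoacyl-tRNA synthetase genes fell with aPD1 and none rose in DESeq2 (6 were called in edgeR, median log2 -0.40, against 0.01 over all genes), as did 7 of 9 genes of the amino acid stress response, among them Atf4, Chac1 and Trib3 (6 called in edgeR). These counts rested on few tumors. Without the 3 tumors high in B cell markers, of which CC002F1 isotype replicate 1 is one, 5 of the 19 and 5 of the 9 were called, and the genes called in this line went from 475 to 69. Without CC002F1 isotype replicate 2 they were 0 of 19 and 2 of 9, and without CC002F1 aPD1 replicate 1 they were 0 of 19 and 3 of 9. Cell markers differed in the same contrast, with Lyz2, Ncr1 and Col1a1 called higher and Cd79a and Krt8 lower, beside the macrophage sums above, and their part was not tested. Wars itself held 3202 and 2937 with isotype and 2772 and 2296 with aPD1 there, a log2 change of -0.28 ± 0.17 (DESeq2 adjusted p 0.406). Ahr had its largest difference in CC002F1, with 545 and 456 normalized counts with aPD1 against 325 and 274 with isotype (log2 0.74 ± 0.26, DESeq2 adjusted p 0.0912). That change was called without CC075F1 isotype replicate 1 (0.0388) or 2 (0.0408), tumors of another line that enter only through the shared spread and the adjustment.

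The second question was how the R and NR lines differed. Across the 23 tumors, in a model of class and antibody, 1 of the 7 genes was called, against 14.4% of 17643 genes called and 6.78% called lower in the R lines. That gene was Kmo, whose enzyme makes 3-hydroxykynurenine, and it was lower in the R lines, by log2 -1.19 ± 0.40 (0.439-fold, DESeq2 adjusted p 0.0261). Its normalized counts in the R tumors had a lowest value of 30.1, a median of 64.2 with isotype and 78.1 with aPD1, and a highest value of 178. In the NR tumors the lowest was 21.8, the medians 187 and 159.7 and the highest 369.9.

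**Figure D3:**
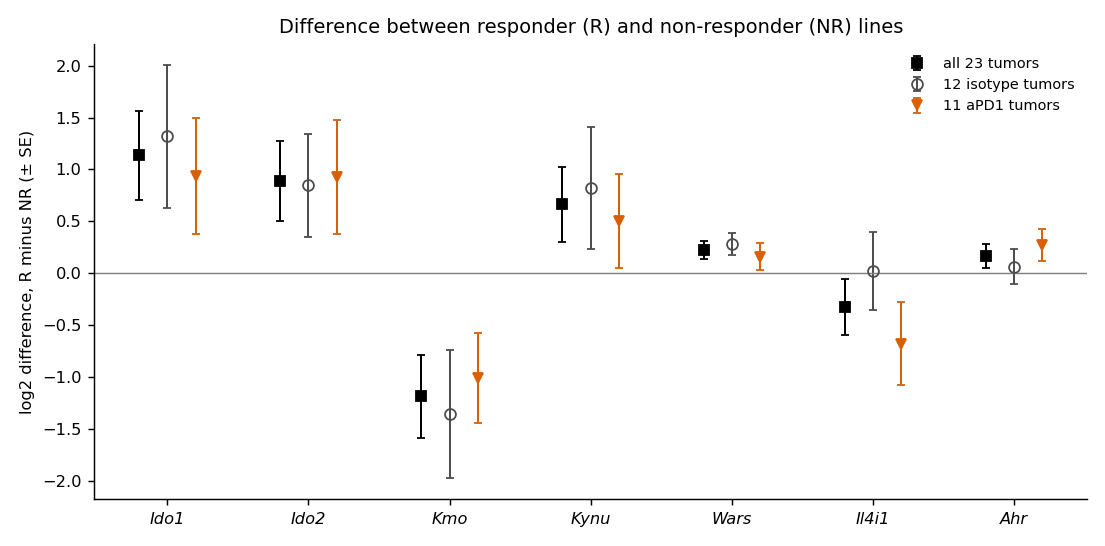
Difference between R and NR lines, as log2 R minus NR with its standard error, for each of the 7 genes, over all 23 tumors (black), the 12 isotype tumors (open gray) and the 11 aPD1 tumors (orange). Kmo lies between -1.36 and -1.01, Ido1 between 0.94 and 1.32, and Wars, Il4i1 and Ahr lie nearer to 0.

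The NR lines held both the highest and the lowest Kmo value. CC080F1 was the highest line, with 336 and 256 normalized counts with isotype and 369.9 with aPD1, and no tumor of another line reached its lowest value. CC036F1 followed (237, 137, 203 and 159.7), and CC075F1, an R line, came next (71.1, 118, 178 and 136). CC079F1, the remaining NR line, held 31.0, 21.8, 75.4 and 112, overlapping CC001F1 (30.1 to 104) and CC002F1 (44.3 to 70.3). In the mean over their tumors, the lines ran from 320.5 ± 58.4 (SD, n = 3) in CC080F1 to 53.7 ± 11.6 (SD, n = 4) in CC002F1, a 5.97-fold range.

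The class call of Kmo depended on the lines included and on the processing. Without CC080F1 the difference fell to log2 -0.63 (DESeq2 adjusted p 0.259), and without CC079F1 it grew to -1.66 (6.54e-06). It was also not called without CC001F1, CC002F1 or CC036F1 (adjusted p 0.119 to 0.158), and leaving out lines was chosen after seeing the data. With counts summed per line, so that 3 lines faced 3, the adjusted p was 0.335. It was 0.0882 in limma, where line was a random effect, and 0.0518 in edgeR, which called 6.16% and 6.7% of 26342 genes. In deep libraries it was 0.0509, and without the 3 tumors high in B cell markers 0.0791, both by DESeq2. Leaving out any 1 of 4 tumors (CC036F1 isotype replicate 1 or a CC080F1 tumor) gave an adjusted p of 0.0508 to 0.08.

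Ido1 was higher in the R lines by log2 1.14 ± 0.43 and missed the threshold (2.20-fold, DESeq2 adjusted p 0.0547, edgeR 0.0866). Over all tumors its normalized counts spanned 77.5 to 372 in the R lines and 0 to 379 in the NR lines. CC036F1, an NR line, overlapped the R lines. Its mean of 173 ± 142 (SD, n = 4) lay between CC075F1 (195 ± 101) and CC002F1 (156 ± 75.1), while CC079F1 (50.3 ± 41.1, n = 4) and CC080F1 (42.8 ± 51.7, n = 3) were low. The CC036F1 mean was raised by 1 tumor, aPD1 replicate 1 at 379. By median, CC036F1 (125.3) was below CC002F1 (148.4), CC075F1 (211.9) and CC001F1 (232.9). Without CC036F1, 3 members were called, namely Ido1 (1.96, DESeq2 adjusted p 0.000414), Ido2 (1.85, 0.00022) and Wars (0.29, 0.0319), where 10.9% of 16797 genes were called. Ido1 was also called in limma (1.38, adjusted p 0.0362), in DESeq2 without CC080F1 (0.98, adjusted p 0.0414) and without CC036F1 isotype replicate 2, CC036F1 aPD1 replicate 1 or either CC080F1 isotype tumor (adjusted p 0.00344 to 0.0454), but not with counts summed per line (0.94, adjusted p 0.495).

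**Figure D4:**
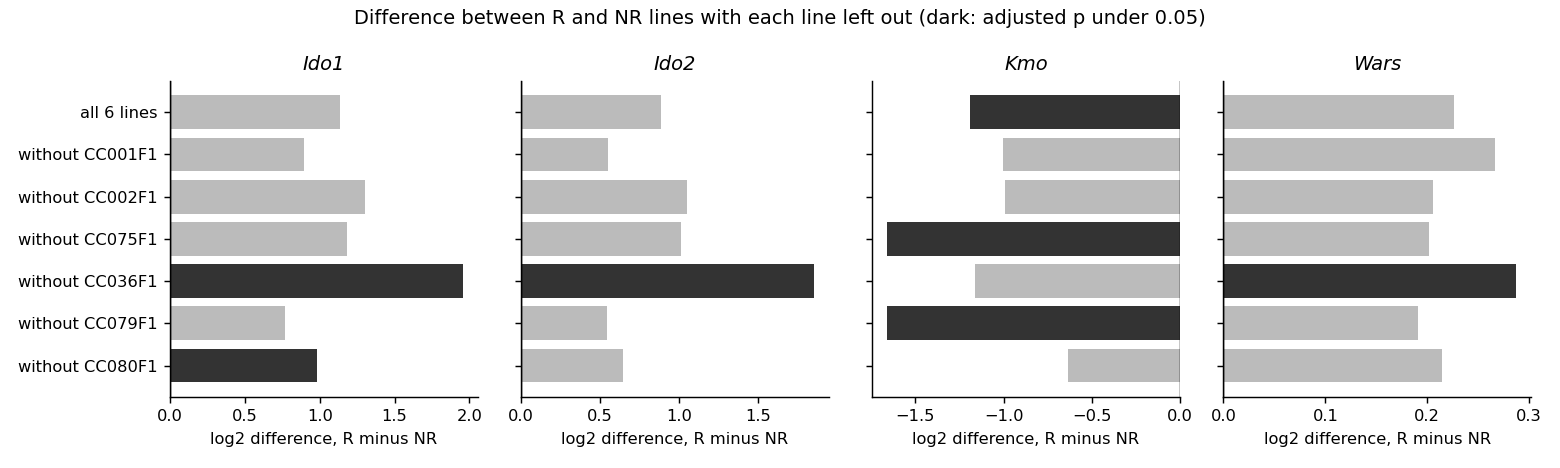
Difference between R and NR lines, as log2 R minus NR on the horizontal axis, with all 6 lines and with each line left out, for Ido1, Ido2, Kmo and Wars. Dark bars have a DESeq2 adjusted p below 0.05, and the scales differ between panels. Kmo runs from -0.63 without CC080F1 to -1.66 without CC075F1 or CC079F1, and Ido1 and Ido2 are largest without CC036F1.

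The remaining members differed less between classes. Ido2 was higher in the R lines by log2 0.89 ± 0.38 (DESeq2 adjusted p 0.104), Kynu by 0.66 ± 0.36 (0.228), Wars by 0.23 ± 0.09 (0.0582) and Ahr by 0.17 ± 0.12 (0.386), and Il4i1 was lower by 0.33 ± 0.27 (log2 -0.33, adjusted p 0.488). Ido2 was called without CC036F1 isotype replicate 2 (1.06, adjusted p 0.0498) or aPD1 replicate 1 (1.13, 0.0311), and Wars without any 1 of 5 tumors (CC001F1 isotype replicate 2 and aPD1 replicate 1, CC002F1 aPD1 replicate 2, CC075F1 isotype replicate 2 and CC036F1 aPD1 replicate 2, DESeq2 adjusted p 0.00965 to 0.0382). Kynu, which cleaves kynurenine and 3-hydroxykynurenine, was scarce everywhere. Its normalized counts had medians of 27.3 (range 3.81 to 38.6) in R isotype, 28.9 (12.1 to 44.1) in R aPD1, 12.8 (1.77 to 25.6) in NR isotype and 21.8 (10.2 to 38.4) in NR aPD1 tumors. All 4 ranges overlapped. Ahr had medians of 347 (274 to 499) in R isotype, 451 (276 to 545) in R aPD1, 341 (277 to 430.2) in NR isotype and 352 (327 to 409.9) in NR aPD1 tumors. For Wars the medians were 2820 (2117 to 3202), 2904 (2296 to 3398), 2256 (1836 to 2433) and 2484 (1924 to 3197) in the same order. Within isotype tumors alone, none of the 7 was called in DESeq2, edgeR or limma (2, 3 and 2 with an unadjusted p below 0.05). Wars was called there without CC001F1 isotype replicate 2 (DESeq2 adjusted p 0.0438) or CC075F1 isotype replicate 2 (0.00682). Of all genes DESeq2 called 5.53%, edgeR 0.122% and limma 0.0122%. Within aPD1 tumors alone none was called by these tools either (1, 1 and 3), where they called 7.93%, 2.25% and 0.798% of all genes. The Ido1 difference there was called without CC036F1 aPD1 replicate 1 (log2 1.72, DESeq2 adjusted p 9.5e-05), and those of Kmo (-1.32, 0.0349) and Ahr (0.39, 0.0128) without CC075F1 aPD1 replicate 1. Kmo was at log2 -1.36 ± 0.62 with isotype and -1.01 ± 0.43 with aPD1, and Ido1 at 1.32 ± 0.69 and 0.94 ± 0.56.

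Other genes of the pathway were compared between R and NR lines as well, where 14.4% of all genes were called. Of 8 further kynurenine pathway genes, Haao, which follows Kynu, was higher in the R lines (log2 1.1 ± 0.26, DESeq2 adjusted p 0.00079), while Afmid, Kyat1, Kyat3, Tdo2 and Qprt did not pass and Aadat and Acmsd had no adjusted p. Tdo2, the other enzyme of the first step, held 2.15 to 15.2 normalized counts. Of 5 tryptophan transporter genes, Slc7a8 alone was higher in the R lines (0.33 ± 0.12, DESeq2 adjusted p 0.0444), and it also rose with aPD1 there (0.54 ± 0.17, DESeq2 adjusted p 0.0271). In edgeR 0 of the 5 were called in either comparison (1 and 2 with an unadjusted p below 0.05). Slc7a5 and Slc3a2, the subunits of the main transporter, were at -0.03 ± 0.09 and -0.05 ± 0.08. None of the 4 genes of the serotonin branch with an adjusted p passed in DESeq2 or edgeR (2 with an unadjusted p below 0.05 in each), nor did any of 19 other tRNA synthetase genes (0 in each).

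Of 8 partners and targets of Ahr, 6 had an adjusted p between R and NR lines and 2 were called, where 14.4% of all genes were called. Ahrr, a repressor that Ahr itself induces, was higher in the R lines (1.1 ± 0.29, DESeq2 adjusted p 0.00253) at 8.26 to 96.5 normalized counts, and Arnt, the partner of Ahr on DNA, was lower (-0.13 ± 0.03, adjusted p 0.00149) at 2642 to 3231. The classical targets Cyp1a1 and Cyp1a2 were nearly absent, with a median of 0 and a highest value of 3.74 and 3.54. Cyp1b1 (0.76 ± 0.53), Tiparp (-0.14 ± 0.07) and Nqo1 (-0.17 ± 0.24) did not pass. With aPD1 in the R lines, Cyp1a1 and Cyp1a2 were not fitted. None of the other 6 passed there in DESeq2 or edgeR (1 with an unadjusted p below 0.05 in each).

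The interferon gamma axis and several cell markers were higher in the R lines, in a model without a line term. Of all genes, DESeq2 called 14.4% and edgeR 6.7% in this comparison. Of the 13 axis genes, 7 were called higher and none lower in DESeq2 (6 called in edgeR, median log2 0.42), with Ifng at 1.89 ± 0.33, Ciita at 1.52 ± 0.28 and Cxcl9 at 1.56 ± 0.29. Of the dendritic cell markers Xcr1, Clec9a, Batf3 and Irf8, all but Clec9a (0.18 ± 0.10, DESeq2 adjusted p 0.209) were higher. None of the 4 mature dendritic cell markers passed in DESeq2 or edgeR. Their mean sums were 10860 in R isotype, 11250 in R aPD1, 11230 in NR isotype and 11260 in NR aPD1 tumors. Higher as well were 3 of 4 T and NK cell markers (Cd3e, Cd8a and Nkg7) and 2 of 5 macrophage markers (Adgre1 and Csf1r). The macrophage marker Mrc1 went the other way without passing (-0.24 ± 0.11, DESeq2 adjusted p 0.125). Apoe (0.34 ± 0.20) and Lyz2 (0.32 ± 0.18) did not pass either (0.261 each). By line, the summed type 1 dendritic cell markers had their lowest mean in CC036F1 (1631, against 1805 in CC079F1, 2472 in CC080F1 and 2683 to 3405 in the R lines). In CC036F1 the mature dendritic cell markers summed to 10810 by mean, within the 10770 to 11530 of the 6 lines. Of the single markers, Ccl22 differed among the lines (log2 range 1.36, likelihood ratio test, DESeq2 adjusted p 0.000239). Ccr7 (1.17), Il12b (0.95) and Fscn1 (0.10) did not pass (adjusted p 0.597 to 0.843). Ccl22 was also called higher with aPD1 over all lines (0.62 ± 0.19, DESeq2 adjusted p 0.0438). The T and NK cell markers of CC036F1 summed to 360 by mean, between CC079F1 (313) and CC080F1 (694) and below the 1054 to 1528 of the R lines. The part of these cells in the class differences was not tested.

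Across the 6 lines, taken without regard to class, 3 of the 7 genes differed in a likelihood ratio test that kept antibody in the model and called 16% of 19192 genes (edgeR 6.32% of 26342). Kmo was first (DESeq2 adjusted p 1.98e-15, edgeR 5.03e-05), with log2 2.63 between the highest and the lowest line. Ido2 (2.39, adjusted p 0.000491, edgeR 0.0273) and Ido1 (2.54, adjusted p 0.011, edgeR 0.0287) followed. Kynu (adjusted p 0.103), Wars (0.331), Il4i1 (0.675) and Ahr (0.695) did not pass in DESeq2. Kynu was called without CC001F1 aPD1 replicate 1, CC002F1 isotype replicate 1 or CC036F1 aPD1 replicate 2 (0.0381 to 0.0491). The Ido1 call was lost without CC079F1 aPD1 replicate 1 (0.0531) and without the 3 tumors high in B cell markers (0.112).

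Ido1 and Ido2 shared the ends of their line orders, and Kmo had another order. CC001F1 led for both (254 ± 90.6 for Ido1 and 111 ± 49.8 for Ido2, SD, n = 4), and CC079F1 and CC080F1 closed both orders. The fold from the highest to the lowest line mean was 5.95 for Ido1 and 7.58 for Ido2. Neighbouring lines overlapped throughout for both genes. For Kmo the highest line, CC080F1, was the lowest for Ido1 and Ido2. Line means of Wars (2248 to 2862) and Ahr (329 to 439) spanned 1.27-fold and 1.33-fold, with overlap between all neighbours.

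**Figure D5:**
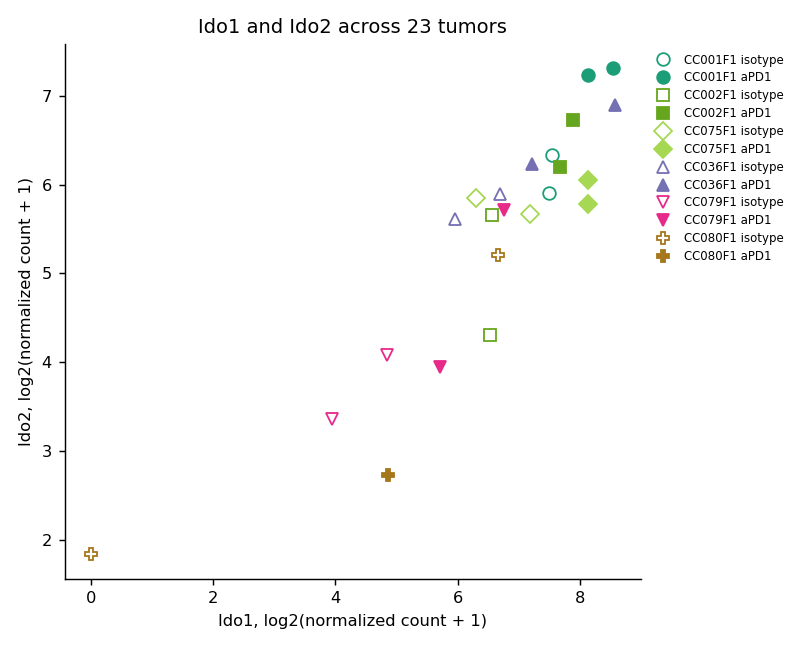
Ido2 against Ido1 in the 23 tumors, both as log2(normalized count + 1), with the marker shape and color giving the host line and filled markers aPD1 tumors. The points rise together (Pearson r 0.90), from CC080F1 isotype replicate 2 at the lower left, with 0 Ido1 counts, to the CC001F1 aPD1 tumors at the upper right.

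Among the 21 pairs of members, only Ido1 and Ido2 were related across the 23 tumors after adjustment. Pearson's r was 0.901 and Spearman's rho 0.896 on log2 values, each with a permutation p of 1e-05, the smallest that 100000 permutations can give, and an adjusted p of 0.00021. Without the 2 tumors farthest from the median of Ido1, r was 0.868, and over deviations from the group means it was 0.875. Within the R tumors r was 0.721. The other 20 pairs had r of -0.383 (Kmo and Ahr) to 0.427 (Ido1 and Wars), with adjusted permutation p of at least 0.307 for r and 0.234 for rho. Tumors of a line are not independent of each other, which these p-values do not take into account.

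Searched over the 12054 genes with a mean of at least 100 normalized counts, the genes most like Ido1 across the 23 tumors were H2-Q7 (r 0.899), Apol6 (0.885), Gm5970 (0.869), Gpr35 (0.865) and Bst1 (0.858). For Ido2 they were H2-Q7 (0.942), H2-Q6 (0.903) and Ido1 itself (0.901). H2-Q7 and H2-Q6 are non-classical class I histocompatibility genes with near-identical relatives, whose counts are uncertain here. For Wars they were Epha2 (0.92), Mybbp1a (0.914) and Tcof1 (0.902), none of them an interferon gamma axis gene of the list, and the r over deviations from group means stayed at 0.846 to 0.925. The likeness of the other members was weaker. Kmo was nearest to Dym (0.700), Fkbp5 (0.692) and Golga3 (0.680), Kynu to Il10rb (0.769), Cnp (0.755) and Rgs14 (0.746), and Ahr to Gm14005, Stx2 (0.66 each) and Aqp1 (0.643). Among the genes nearest to Il4i1 were H2-DMb2 (0.693) and Cd22 (0.615), the latter a B cell gene. Over deviations from group means, r was 0.167 to 0.636 for the genes nearest to Kmo, 0.56 to 0.652 for Kynu and 0.411 to 0.618 for Ahr. For Il4i1 it was 0.427 with H2-DMb2 and 0.28 with Cd22, where Spearman's rho over all tumors was 0.459 and 0.402. All these values share libraries, depth and line structure, and are a description only.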

How the data were processed

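The authors made poly(A) libraries from frozen tumors, aligned reads (Bowtie 1.2.3 in the submitters' processing notes) to founder-strain transcriptomes built from GENCODE vM23 on GRCm38, and deposited expected counts per gene from gbrs. These estimated counts are not scaled for depth, and shared reads are split between genes. They were rounded for testing. Symbols and positions came from GENCODE vM21 (same build), which matched 26681 of 26869 identifiers.

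Groups were line and antibody from the labels. Response class came from the study's text. DESeq2 1.42.0 (R 4.3.3) was run with default options over all genes with at least 5 counts per fit, with terms as stated beside each result. The R against NR models had no line term, so tumors sharing a line counted as independent. Alternatives were edgeR 4.0.16 with TMM, TMM size factors in DESeq2, other count filters, deep libraries, a replicate block, line sums, limma 3.58.1 with line as a random effect, each tumor left out, and, added after seeing the data, depth as a term, tumors high in B cell markers left out and each line left out. The members and lists were chosen with earlier results of these data known. All members were named, other listed genes where they passed a test or stood beside a member, and likeness was ranked by Pearson r (5 genes for Ido1, 3 for each other member). Some genes that this rule would name are not reported here. Normalized counts use DESeq2 size factors, and CPM per kb uses TMM-scaled totals. Replicates of a group were separate tumors that differed beyond sampling noise (chi-square per degree of freedom 9.16 to 123 over 11 pairs). The fits were tested on simulated data.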

Additional observations from a re-analysis of the deposited data

Results flagged for a closer look

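Ido2 in CC002F1 isotype replicate 1 stood apart from the other R isotype tumors. It held 18.8 normalized counts, where the other 5 held 49.5 to 79.4, and on the log2(normalized count + 1) scale its gap to the nearest was 0.668 of the group's range, above the limit of 0.625 for 6 samples. The same tumor had a B cell marker sum of 814 normalized counts. Chance alone flags about 1 in 20 groups, and this was 1 of 28 groups of 5 or 6 tumors examined. Without this tumor the Ido2 change with aPD1 in the R lines was log2 0.73 in place of 0.91 and was still below the threshold (DESeq2 adjusted p 0.0499). No difference of antibody change between R and NR lines passed for any of the 7 genes.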

How the results depend on the processing

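Across alternatives that kept every tumor or dropped tumors by depth, B cell markers or line, 532 values of the 7 genes in comparisons over several lines were recomputed, of which 16 lost a call, 6 gained one, 17 turned direction and the rest kept their direction and side of the threshold. Of 329 such values within single lines, 8 turned direction and no call changed. With single tumors left out, 895 of 966 values over several lines and 932 of 959 within single lines kept both. The cause of the changes was not tested. Of the 7 genes, the number called between R and NR lines (1) became 0 in edgeR, in deep libraries, without the 3 tumors high in B cell markers, with counts summed per line and without CC001F1 or CC002F1, and 3 without CC036F1. The number called with aPD1 in the R lines (2) became 0 in edgeR. Over all lines (1) it became 0 in edgeR, in deep libraries and with depth as a term, and 2 without the 3 tumors high in B cell markers. With the replicate block it became 0 (Ido1 log2 1.18, DESeq2 adjusted p 0.0577). Same-numbered deviations correlated at -0.202 to 0.368 in 5 lines, over 0.1 in 3 of them, so the numbers were taken as names only. With single tumors left out, the number called ranged from 0 to 3 between R and NR lines over all tumors, 0 to 1 in isotype tumors, 0 to 2 in aPD1 tumors, 1 to 2 with aPD1 in the R lines, 0 to 1 in the NR lines, 0 to 2 over all lines and 0 to 2 within single lines.

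All values that turned direction were uncalled, and all are log2. For R against NR in isotype tumors, Il4i1 (0.03) was -0.15 in deep libraries, -0.082 with depth as a term, -0.27 without the tumors high in B cell markers, -0.12 with line sums and -0.15 in limma, and Ahr (0.064) was -0.069 in deep libraries, -0.034 with line sums and -0.044 in limma. In aPD1 tumors, Il4i1 (-0.68) was 0.13 without the tumors high in B cell markers. With aPD1, deep libraries gave -0.0038 for Wars in the R lines and -0.22 for Ido2 in the NR lines. Ahr in the NR lines (-0.0023) was 0.0065 in edgeR, 0.0037 with TMM size factors and 0.085 without the tumors high in B cell markers. The R minus NR difference of the antibody change was 0.56 for Ido1 in deep libraries, and without the tumors high in B cell markers -0.54 for Ido2 and 0.37 for Il4i1. Within lines, deep libraries gave -0.013 for Wars in CC001F1, -0.23 for Il4i1 in CC075F1, 0.40 for Kmo in CC036F1 and 0.041 for Ahr in CC079F1. Without the tumors high in B cell markers, Kmo in CC002F1 was 0.021, Kynu in CC079F1 0.49 and Ahr in CC079F1 0.054. The replicate block gave 0.016 for Kynu in CC079F1.

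With single tumors left out, the ranges that crossed 0 were as follows. For R against NR in isotype tumors they were -0.27 to 0.26 for Il4i1 and -0.043 to 0.14 for Ahr. With aPD1 they were -0.025 to 0.14 for Wars in the R lines and -0.047 to 0.081 for Ahr in the NR lines. For the R minus NR difference they were -0.80 to 0.25 for Ido1 and -0.15 to 0.82 for Ido2. In CC001F1 they were -0.18 to 1.26 for Kmo, -0.80 to 0.29 for Kynu, -0.054 to 0.30 for Wars and -0.099 to 0.28 for Ahr. In CC002F1 they were -0.54 to 0.021 for Kmo, -0.44 to 2.26 for Kynu and -0.44 to 0.80 for Il4i1. In CC075F1 they were -0.22 to 0.99 for Il4i1 and -0.56 to 0.20 for Ahr, and in CC036F1 -0.39 to 0.40 for Kmo and -0.63 to 0.63 for Il4i1. In CC079F1 they were -0.64 to 0.98 for Kynu and -0.14 to 0.11 for Ahr. In CC080F1 they were -1.83 to 5.90 for Ido1, where the upper value is against a tumor at 0 and is no estimate, -2.68 to 1.13 for Ido2 and -0.38 to 0.24 for Ahr. Kynu reached at most 44.1 normalized counts, so counting error is part of its spread.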
